A study of Mus musculus with 6 samples.

Results

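Fragments of the tRNAs for the aromatic amino acids phenylalanine (Phe), tyrosine (Tyr) and tryptophan (Trp) were followed through a pull-down of phosphorylated tau from mouse hippocampus. They were chosen by name from the authors' deposited table of 2380 small RNAs: every nuclear tRNA fragment whose name ends in a tRNA for Phe, Tyr or Trp. The rule gave 36 of the 817 named tRNA fragments, against 730 other nuclear and 51 mitochondrial ones. Of the 36, 8 came from tRNA-Phe (anticodon GAA), 15 from tRNA-Tyr (GTA) and 13 from tRNA-Trp (CCA). By type they were 12 fragments called 5'tiRNA, 4 called 3'tiRNA, 13 called tRF5 and 7 called tRF3, and all 13 Trp fragments lay outside the 5'tiRNA type.

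The hippocampus samples came from PS19 mice, which carry a mutant human tau transgene, and from wild-type (WT) controls, with 3 arrays per genotype. The PS19 transgene is driven by the mouse prion promoter, and mouse tau is still present in both genotypes. Homogenised tissue was treated with ultraviolet light to crosslink RNA to protein, and beads carrying an antibody to Tau pS396, a phosphorylated form of tau, collected the complexes. Each array held the pulled-down RNA (CLIP, red channel) and the unbound RNA of the same sample (supernatant, green channel). The labels used here give no age, sex or number of animals per array and name no pull-down with a control antibody, so a ratio of CLIP to supernatant was not set against a pull-down background. They also do not say that the arrays came from separate animals, so p-values measure the spread between these arrays. In CLIP the fit pooled that spread over all RNAs tested, so a CLIP p-value does not reflect a fragment's own spread.

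Transfer RNAs deliver amino acids to the ribosome. Under stress the nuclease angiogenin cuts mature tRNAs in the anticodon loop into fragments named tiRNAs: the 5'tiRNA runs from the start of the tRNA to the anticodon, and the 3'tiRNA from there to the end. The shorter tRF5 and tRF3 fragments come from the same ends and are cut in the D loop and the T loop; tRF3a and tRF3b are shorter and longer forms of the 3' fragment, which carry the CCA tail to which the amino acid is attached. Tyr tRNA genes are unusual in that they hold an intron that must be spliced out, and 5' fragments of tRNA-Tyr are known to build up in mice that lack the activity of CLP1, a kinase of tRNA splicing. RefSeq (GRCm38.p6) lists 7 genes for tRNA-Phe (GAA), all of 73 bases, on 5 chromosomes. It lists 8 for tRNA-Trp (CCA), of 72 bases, on 3 chromosomes, and 10 for tRNA-Tyr (GTA), of 86 to 93 bases, 6 of which lie on chromosome 13. The last number in a fragment's name marks its tRNA within the array's own naming and was not matched to these genes; the number after the type is the length in nucleotides. No tRNA or probe sequence was used here. Fragments of the same tRNA differ by as little as 1 nucleotide in length, and fragments of different copies may share most of their sequence, so neighbouring names are not independent measurements.

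Detection differed between arrays, and most in CLIP. Of all probes, 10.6% to 49.4% were well above background in CLIP and 35.5% to 63.2% in the supernatant, with WT 1 and WT 3 lowest in CLIP. On WT 1, WT 2, WT 3 and PS19 1 fewer probes passed in CLIP than in the supernatant, and on PS19 2 and PS19 3 more did. WT 2 and PS19 1 were scanned together, as were PS19 2 and PS19 3, while WT 1 and WT 3 were each scanned alone. Over the RNAs tested, CLIP levels correlated at 0.953 to 0.974 between arrays of 1 scan and at 0.644 to 0.822 between arrays of different scans, whichever their genotype. The 3 WT arrays thus lie in 3 different scans, and the only comparison of genotypes within a scan is PS19 1 against WT 2. Among microRNAs that mark cell types, 5 of 8 neuronal ones were in the deposited table. In CLIP miR-124-3p was well above background on 6 arrays, miR-129-5p on 5, miR-9-3p and miR-138-5p on 4 and miR-9-5p on 3. In the supernatant miR-124-3p and miR-129-5p were so on 6 arrays, miR-138-5p on 5, miR-9-3p on 4 and miR-9-5p on 2. Of the other markers, 1 of 3 oligodendrocyte, 1 of 3 microglial and 1 of 4 liver or muscle microRNAs were in the table, and none of 4 blood or 2 choroid plexus markers. All of those in the table were well above background on 6 arrays in the supernatant. In CLIP microglial miR-155-5p was so on 6 arrays, muscle miR-206-3p on 5 and oligodendrocyte miR-219a-2-3p on 4.

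The 5'tiRNAs were the fragments seen most regularly in the tau pull-down. In CLIP, 13 of the 36 fragments (36.1%) were well above background on all 6 arrays, against 50 of 730 other nuclear tRNA fragments (6.85%). Of all 2380 named RNAs, 546 (22.9%) were. These 13 were 11 of the 12 5'tiRNAs of Phe and Tyr together with tRF5-22-PheGAA-1 and tRF5-22-PheGAA-2, counting 5'tiRNA-35-PheGAA-1 on WT 1, where its spot passed as detected but was an outlier. Among the 5'tiRNAs of other nuclear tRNAs only 6 of 213 (2.82%) reached all 6 arrays. In the supernatant the shares were closer, with 28 of 36 (77.8%) against 508 of 730 (69.6%). Every one of the 2380 names was well above background in CLIP on at least 3 arrays, and none of the 950 unnamed tRNA fragment probes was, so that the 36 had passed a detection limit by being in the table at all.

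Detection of the Trp fragments differed between arrays of the same genotype. In CLIP none of the 13 was well above background on WT 1 or WT 3, whereas 13 were on WT 2, and 12, 11 and 13 on PS19 1, PS19 2 and PS19 3. All 36 fragments together gave 13, 35 and 14 on WT 1, WT 2 and WT 3 and 35, 32 and 35 on the PS19 arrays in CLIP, and 31 to 36 on every array in the supernatant. WT 1 and WT 3 were also the arrays with the fewest probes of any kind above background in CLIP.

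**Figure D1:**
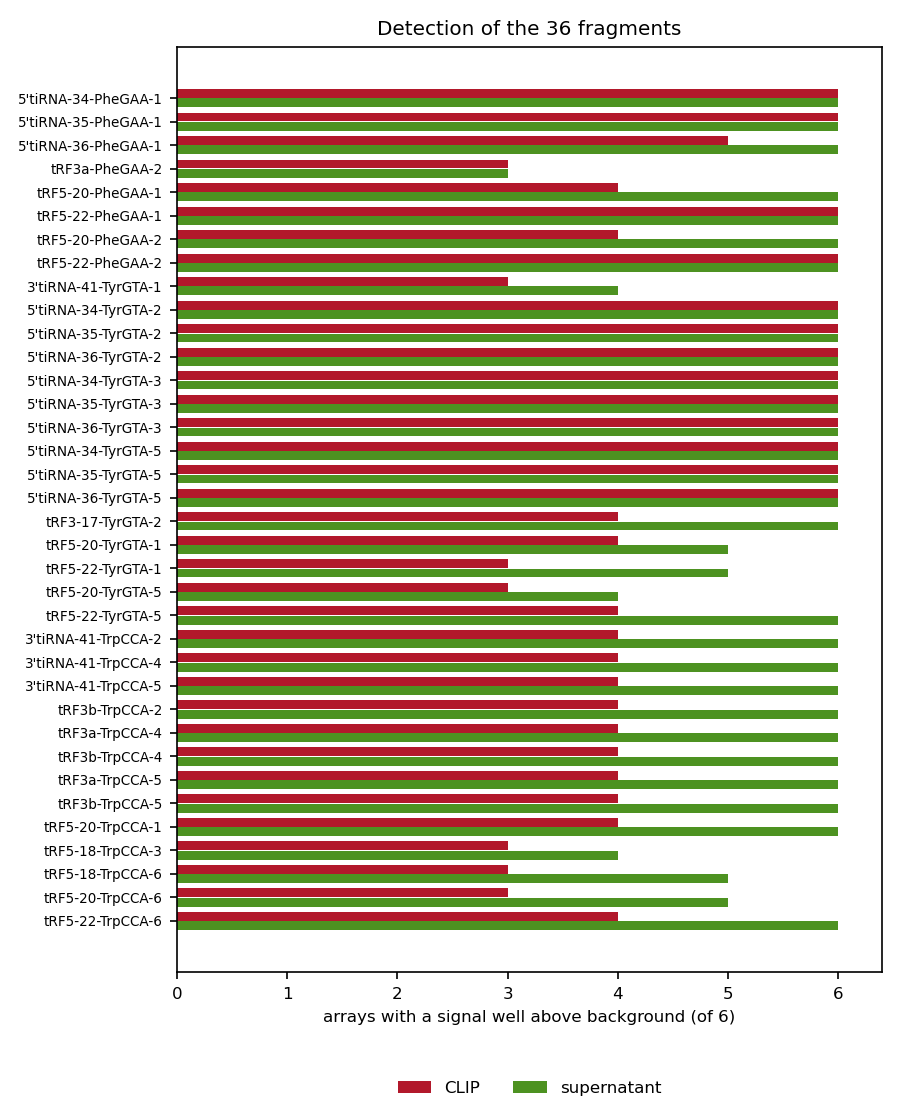
Horizontal bars give, for each of the 36 fragments, the number of the 6 arrays with a signal well above background in CLIP (red) and in the supernatant (green). The Phe and Tyr 5'tiRNAs reach 5 or 6 arrays in CLIP, while no Trp fragment reaches more than 4.

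In the supernatant the most variable of the 36 were the Phe 5'tiRNAs of 34 and 35 nucleotides, and their genotypes overlapped. Levels are log2 signals minus the array's 75th percentile over RNAs detected on all 6 arrays, and they can be compared between arrays for 1 fragment but not between fragments. In the supernatant 5'tiRNA-34-PheGAA-1 had levels of 4.33, 0.73 and 5.92 on WT 1, WT 2 and WT 3, and of 0.47, 2.70 and 2.55 on PS19 1, PS19 2 and PS19 3. It was highest on WT 3 and WT 1 and lowest on the arrays that share a scan, WT 2 and PS19 1, so the PS19 values lay within the WT range or just below it. The 35-nucleotide form, 5'tiRNA-35-PheGAA-1, ran alongside it, at 4.54, 1.00 and 6.16 on the WT arrays and 0.97, 2.68 and 2.69 on the PS19 arrays. The span from lowest to highest array was 5.45 on the log2 scale (43.6-fold) for the 34-nucleotide form, which 56 of 3668 RNAs exceeded, and 5.19 (36.5-fold) for the 35-nucleotide form, which 71 exceeded.

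The longest form of the same fragment did not show this spread. In the supernatant 5'tiRNA-36-PheGAA-1 had levels of -1.39, -1.06 and -0.69 on the WT arrays and -1.08, -1.12 and -1.37 on the PS19 arrays, a span of 0.69 (1.62-fold). The Phe 5' fragments of 22 nucleotides, tRF5-22-PheGAA-1 and tRF5-22-PheGAA-2, spanned 1.66 and 1.68. Thus a difference of 1 nucleotide in the fragment's name separated the forms that moved from the form that did not.

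The tau pull-down carried the same pattern. In CLIP 5'tiRNA-34-PheGAA-1 had levels of 3.74, -1.26 and 2.84 on the WT arrays and -1.21, 1.20 and 0.39 on the PS19 arrays, a span of 5.0 (32.0-fold) that 147 of 2238 RNAs exceeded. 5'tiRNA-35-PheGAA-1 had -1.22 and 3.13 on WT 2 and WT 3 and -0.96, 1.02 and 0.61 on the PS19 arrays, with no value on WT 1, where its spot was an outlier. Both were again lowest on WT 2 and PS19 1. The 36-nucleotide form was highest on those arrays in CLIP, at -4.70, -2.68 and -3.43 on the WT arrays and -2.46, -3.52 and -3.43 on the PS19 arrays.

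**Figure D2:**
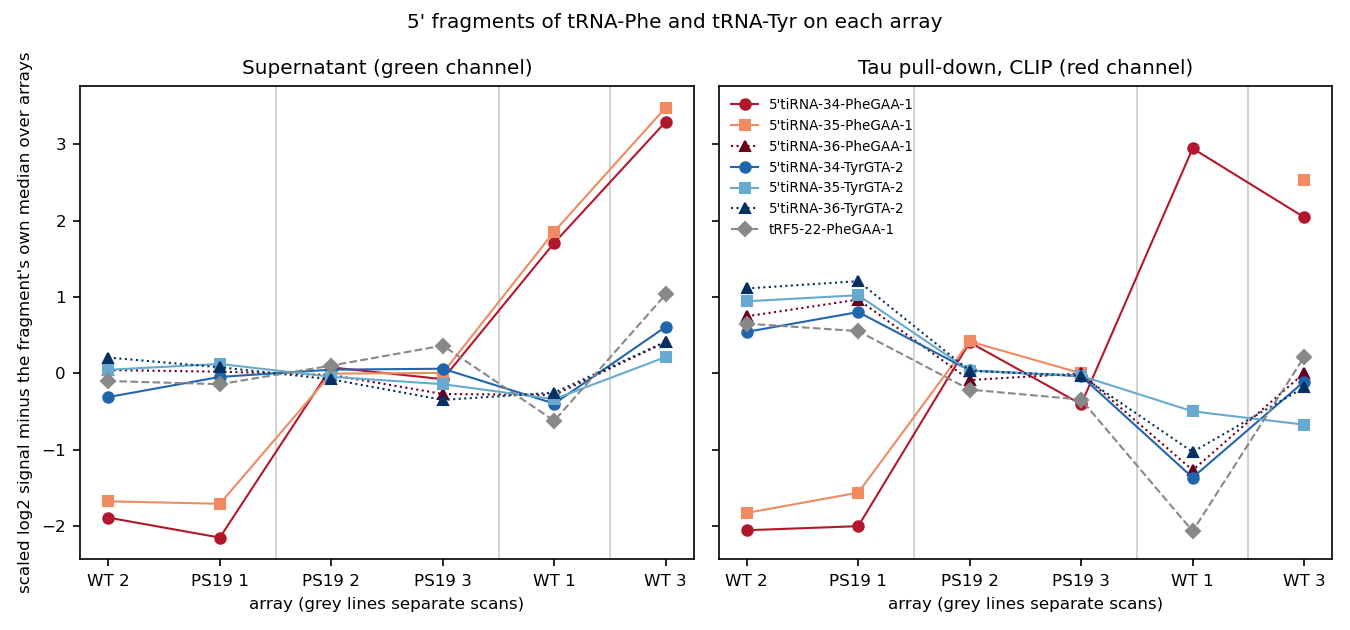
Each line follows 1 fragment over the 6 arrays in the supernatant (left) and in CLIP (right), as its scaled log2 signal minus its own median over arrays; grey lines separate scans. The Phe 5'tiRNAs of 34 and 35 nucleotides span 5.45 and 5.19 in the supernatant, and the 36-nucleotide form 0.69.

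With 3 arrays per genotype these swings did not pass as a genotype difference. The PS19 minus WT difference in CLIP of 5'tiRNA-34-PheGAA-1 was -1.65 (SE 1.04, limma, Benjamini-Hochberg adjusted p = 0.773), from a mean of 1.78 ± 2.67 (SD, n = 3) in WT to 0.13 ± 1.23 (SD, n = 3) in PS19. In the supernatant it was -1.76 (SE 1.36, limma adjusted p = 0.928). Both sizes depended on which arrays were included: relative to the median RNA, the CLIP difference of -2.50 became -1.28 without WT 1, -1.58 without WT 3, -1.53 without PS19 1 and -4.67 without WT 2, and -0.08 with the scan as a fixed block. The supernatant difference of -1.85 became -0.61 without WT 3, -1.11 without PS19 1 and -3.37 without WT 2, -0.33 with that block and -0.11 with array weights. Between the arrays of 1 scan, PS19 1 and WT 2, the difference was 0.05 in CLIP and -0.26 in the supernatant. The fixed block compares genotypes through these same arrays only, 1 against 1, so it is not a separate check. The CLIP difference of 5'tiRNA-35-PheGAA-1 was -0.73 (SE 1.16), and without WT 3 it turned from below to above the median RNA.

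Relative to its supernatant, the 34-nucleotide Phe 5'tiRNA stood highest on a single array, WT 1. The log2 ratio of CLIP over supernatant, centred on each array's median, was 2.42, -0.44 and -0.17 on WT 1, WT 2 and WT 3 and -0.09, 0.90 and 0.18 on the PS19 arrays. On WT 1 this was a 5.36-fold ratio, higher than that of 3920 of 3950 RNAs, and on PS19 2 it was 1.86-fold. The 35-nucleotide form had ratios of -0.68 and -0.12 on WT 2 and WT 3 and -0.35, 0.74 and 0.25 on the PS19 arrays.

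The 9 Tyr 5'tiRNAs varied less between arrays than most RNAs. They carry 3 tRNA numbers (GTA-2, GTA-3 and GTA-5), each at 34, 35 and 36 nucleotides, and all 9 were well above background on all 6 arrays in both channels. In the supernatant 5'tiRNA-34-TyrGTA-2 had levels of 0.63, 0.72 and 1.64 on the WT arrays and 0.98, 1.08 and 1.09 on the PS19 arrays. The 9 spanned 0.55 to 1.12 over the 6 arrays there, with a median of 0.87 against 1.58 for all RNAs tested. The RNAs tested include ones detected on only 3 arrays, so the 9 were not set against RNAs detected alike. Other members were as steady in the supernatant, among them 3'tiRNA-41-TyrGTA-1 with a span of 0.41 and tRF5-22-TyrGTA-1 with 0.60. In CLIP 5'tiRNA-34-TyrGTA-2 had levels of -2.78, -0.87 and -1.52 on the WT arrays and -0.61, -1.37 and -1.45 on the PS19 arrays, again highest on WT 2 and PS19 1.

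Their ratios of CLIP over supernatant lay close to the centre of each array. The medians of the 9 were 0.07, 0.07 and -0.23 on WT 1, WT 2 and WT 3 and 0.14, -0.04 and 0.01 on PS19 1, PS19 2 and PS19 3. 5'tiRNA-34-TyrGTA-5 had the smallest span of the 36 ratios, at 0.07, 0.12 and 0.11 on the WT arrays and 0.07, 0.02 and 0.13 on the PS19 arrays. The 9 ratios spanned 0.11 to 0.83 over the arrays, against a median of 1.54 over all RNAs tested, detected in both channels or not. The centre of an array is the median over all its RNAs, detected or not; the RNAs tested had median ratios of -0.37 and -0.45 on WT 1 and WT 3, below those of the Tyr 5'tiRNAs, and of at least -0.11 on the other arrays.

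In the genotype comparison of CLIP all 9 Tyr and all 3 Phe 5'tiRNAs stood below the median RNA. The median RNA was 0.85 higher in PS19 on the log2 scale, a shift that other scalings moved to between -0.03 and 1.17. The Tyr 5'tiRNAs were 0.20 to 0.58 higher, which is -0.65 to -0.27 relative to that median. The median of the 12 was -0.49 relative to the median RNA, against 0.02 for the 212 other nuclear 5'tiRNAs tested, and none of the 12 passed the test. Among RNAs well above background in CLIP on all 6 arrays the 13 members, 11 of them 5'tiRNAs, had a median of 0.0025 relative to a median RNA that was 0.35 higher in PS19. Of the other nuclear 5'tiRNAs only 14 of 213 were well above background in CLIP on WT 1. In the supernatant the median RNA was 0.10 higher in PS19. The 12 had a median of -0.24 relative to it, all below, against 0.01 for 211 other nuclear 5'tiRNAs. The median supernatant levels of the 12 were 0.60, 0.80 and 1.42 on the WT arrays and 0.81, 0.89 and 0.84 on the PS19 arrays. By these medians only WT 3 lay above the PS19 arrays.

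The Trp 3' fragments had a low ratio of CLIP over supernatant on 1 pair of arrays and not on the other arrays with detected signals. These are the 3'tiRNAs of 41 nucleotides with 3 tRNA numbers (CCA-2, CCA-4 and CCA-5) and 5 tRF3 fragments of the same numbers. tRF3a-TrpCCA-4 had centred log2 ratios of -2.33 on WT 2 and -1.50 on PS19 1, and of -0.02 and 0.40 on PS19 2 and PS19 3. tRF3b-TrpCCA-5 gave -1.91 and -1.49 on the first pair and 0.25 and 0.25 on the second. On WT 2 and PS19 1 both were far below the median RNA, and on PS19 2 and PS19 3 they were at or above it.

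All 8 fragments followed this order. Their ratios ran from -2.40 to -1.82 on WT 2 and from -1.79 to -1.18 on PS19 1, and from -0.62 to 0.61 over PS19 2 and PS19 3, so that arrays of the same genotype did not overlap. The lowest, tRF3b-TrpCCA-2 on WT 2, had a supernatant signal 5.28-fold that of CLIP on the centred scale, and 67 of 3942 RNAs (1.70%) were lower on that array. WT 2 and PS19 1 share a scan and PS19 2 and PS19 3 another, and all 8 were well above background in both channels on these 4 arrays. On WT 1 and WT 3 their CLIP signals were not well above background, and their ratios there, with medians of -0.71 and -1.07, rest on such spots. The 119 other nuclear 3' fragments had median ratios of -0.33 and -0.31 on WT 2 and PS19 1 and of -0.17 and -0.14 on PS19 2 and PS19 3. What sets the difference between scans was not tested.

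**Figure D3:**
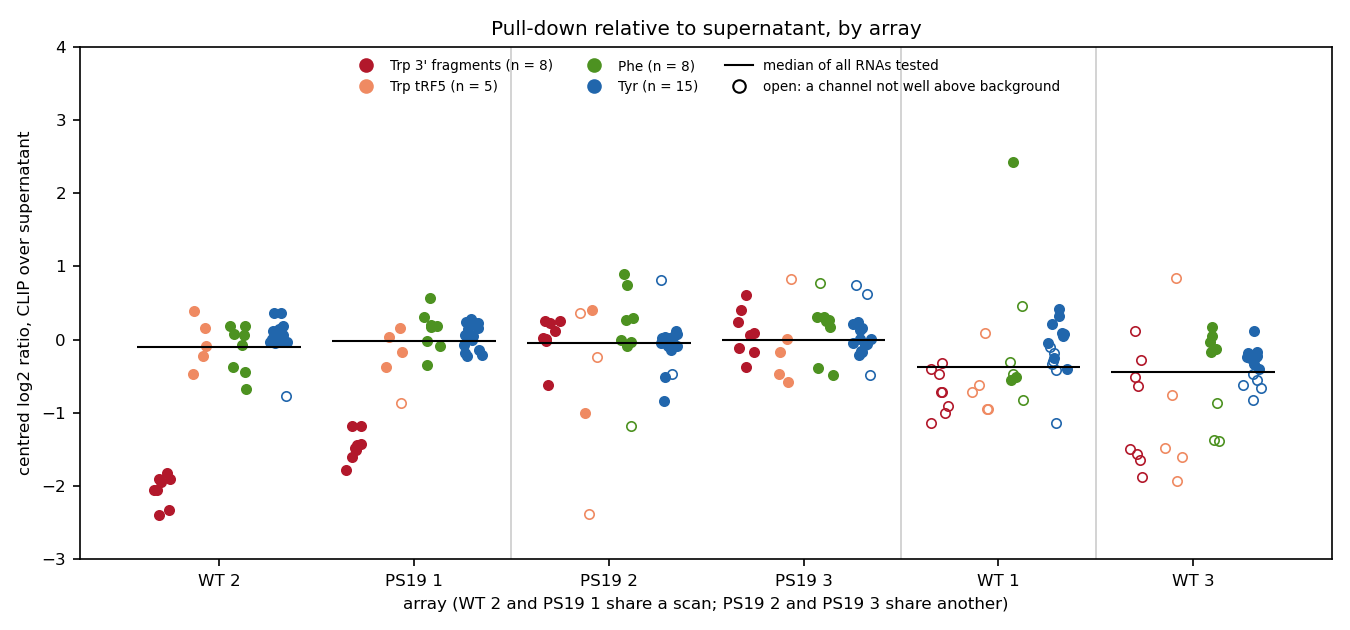
Points give the centred log2 ratio of CLIP over supernatant of each fragment on each array, by amino acid, with the Trp 3' fragments apart; filled points were well above background in both channels and black lines are the medians of all RNAs tested. The 8 Trp 3' fragments lie between -2.40 and -1.18 on WT 2 and PS19 1 and between -0.62 and 0.61 on PS19 2 and PS19 3.

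Both channels went into this pattern. In the supernatant the Trp 3' fragments had median levels of -2.37, -0.29 and -2.80 on WT 1, WT 2 and WT 3 and of -0.80, -1.48 and -1.71 on PS19 1, PS19 2 and PS19 3, highest on WT 2 and PS19 1. In CLIP the medians were -3.88 on WT 2 and -3.83, -3.73 and -3.94 on the PS19 arrays, which lie close together on this scale. All RNAs tested had CLIP medians of -3.49 and -3.34 on WT 2 and PS19 1 and of -4.16 and -4.19 on PS19 2 and PS19 3. Relative to these the Trp 3' fragments were lower on the first pair and higher on the second. In the supernatant all RNAs tested had medians of -2.64 and -2.51 on the first pair and of -2.52 and -2.57 on the second. WT 1 and WT 3, where none was well above background, were at -5.99 and -6.73.

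The 5 Trp tRF5 fragments did not have the low ratios. On WT 2 and PS19 1 their median ratios were -0.09 and -0.17, and on PS19 2 and PS19 3 they were -0.24 and -0.17. tRF5-20-TrpCCA-1 had ratios of -0.72, -0.22 and -1.48 on the WT arrays and -0.37, -1.01 and -0.17 on the PS19 arrays, below 0 on all 6. tRF5-18-TrpCCA-6 ranged widest, from -2.38 on PS19 2 to 0.84 on WT 3, but a channel was not well above background on either. In the supernatant tRF5-18-TrpCCA-3 had levels of -3.25, -3.13 and -4.42 on the WT arrays and -3.04, -2.92 and -2.04 on the PS19 arrays, a difference of 0.93 (SE 0.48, limma adjusted p = 0.928) with no overlap. On WT 3, where its level was lowest, and on PS19 2 its supernatant signal was not well above background. The difference was 0.09 between PS19 1 and WT 2. Relative to the median RNA its 0.84 became 0.54 without WT 3 and 0.48 without PS19 3, and 0.02 with the scan as a fixed block.

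In CLIP the genotype comparison of the Trp fragments rests on WT levels that were mostly not above background. Each of the 13 was well above background on 1 WT array, WT 2, and on 2 or 3 PS19 arrays, so each was in the table and the fit through the PS19 arrays, and that choice favours a higher level in PS19. Their fitted differences were a median of 0.63 above the median RNA, and those of the 8 Trp 3' fragments 0.93, which is given as a description only. The widest was 3'tiRNA-41-TrpCCA-5, with CLIP levels of -5.79, -3.96 and -7.61 on the WT arrays and -3.82, -3.66 and -4.09 on the PS19 arrays. Its difference was 1.93 (SE 1.04, limma adjusted p = 0.773), and its WT 2 level lay among the PS19 levels. Between PS19 1 and WT 2 the median difference of the 8 was 0.06, where that of all RNAs was 0.13, and WT 1 and WT 3, which make up the rest, had no CLIP signal of these fragments well above background. In the supernatant the 13 Trp fragments were a median of 0.40 above the median RNA, 13 of 13. Of other nuclear fragments 461 of 721 were above it, among them 297 of 395 tRF5 and 56 of 115 3' fragments. The median supernatant difference of the 8 Trp 3' fragments between PS19 1 and WT 2 was -0.47.

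Some short fragments of Phe and Tyr had genotypes that did not overlap. tRF5-20-TyrGTA-5, a 5' fragment of 20 nucleotides, had CLIP levels of -6.46, -6.44 and -8.29 on the WT arrays and -4.94, -4.74 and -4.98 on the PS19 arrays. Every PS19 array was above every WT array, but the fragment was well above background on no WT array, so the WT levels are only a bound, and it passed the filter through the 3 PS19 arrays alone. Against the lowest detected signals of the WT arrays PS19 was at least 1.02-fold higher, a log2 bound of 0.02, which is -0.83 relative to the median RNA. The fitted difference of 2.18 (SE 1.04) had an unadjusted p of 0.036 and an adjusted p of 0.773 (limma), and it was 1.5 between PS19 1 and WT 2. With the scan as a random block the estimate was 1.54 (SE 0.298, limma adjusted p = 0.0185), the only member past the threshold under the settings run. Estimates and p-values of this fragment compare PS19 with WT signals not above background, so they are no test of a difference beyond the bound. With normexp background correction it was -0.02 relative to the median RNA.

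The ratio of tRF5-20-TyrGTA-5 has the same limit: a channel was not well above background on WT 1, WT 2, WT 3 and PS19 3. It was -0.41, -0.77 and -0.83 on the WT arrays and 0.01, 0.12 and 0.75 on the PS19 arrays, a difference of 0.96 (SE 0.36, limma unadjusted p = 0.027, adjusted p = 0.774). The other 20-nucleotide Tyr fragment, tRF5-20-TyrGTA-1, had overlapping ratios of -0.19, 0.03 and -0.67 on the WT arrays and 0.28, -0.51 and -0.16 on the PS19 arrays. The 22-nucleotide form with the same number, tRF5-22-TyrGTA-5, had ratios of -0.34, -0.04 and -0.22 on the WT arrays and -0.19, 0.07 and -0.05 on the PS19 arrays, which overlap.

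The Phe fragments of 20 nucleotides had no overlap in some measures. tRF5-20-PheGAA-1 had ratios of -0.83, 0.06 and -1.39 on the WT arrays and 0.18, 0.27 and 0.31 on the PS19 arrays, a difference of 0.98 (SE 0.43, limma adjusted p = 0.774). Its WT 2 value lay only 0.12 below PS19 1, and on WT 1 and WT 3 it was not well above background in CLIP. tRF5-20-PheGAA-2 had supernatant levels of -2.54, -2.60 and -2.14 on the WT arrays and -1.79, -1.92 and -2.04 on the PS19 arrays. These did not overlap, and the difference was 0.51 (SE 0.29, limma adjusted p = 0.928). In CLIP it was 1.34 (SE 1.04), also without overlap, and 1.13 between PS19 1 and WT 2, but its spots on WT 1 and WT 3 did not pass as detected in CLIP.

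The remaining 3' fragments of Phe and Tyr were detected on 3 or 4 arrays in CLIP. The Phe fragment tRF3a-PheGAA-2 was well above background on 3 arrays in each channel, and its ratios ran from -1.38 on WT 3 to 0.78 on PS19 3. 3'tiRNA-41-TyrGTA-1 had ratios of -0.29, -0.05 and -0.47 on the WT arrays and -0.08, -0.47 and 0.63 on the PS19 arrays. tRF3-17-TyrGTA-2, well above background on all 6 arrays in the supernatant, had -1.15, -0.01 and -0.63 on the WT arrays and -0.21, -0.83 and -0.06 on the PS19 arrays. None of the 3 had the low ratios of the Trp 3' fragments on WT 2 or PS19 1.

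Over all RNAs, no fragment passed the test between genotypes. In CLIP 0 of the 36 were called at an adjusted p under 0.05, as were 0 of 2356 RNAs (0%), with a lowest adjusted p of 0.773 (limma). At an unadjusted p under 0.05, 1 member was higher in PS19, where 1.91% of RNAs were, and 0 were lower, where 0.255% were. Without WT 2, 18 members were higher and 2 lower at that level, and so were 961 and 22 of the 2356 RNAs. Of the 35 members with a value on all arrays, 4 had every PS19 level above every WT level, where 4.42% of 2238 RNAs did, and 0 the reverse, where 0.268% did. These 4 were tRF3a-TrpCCA-4, tRF3b-TrpCCA-2, tRF5-20-PheGAA-2 and tRF5-20-TyrGTA-5. None of the 4 was well above background in CLIP on WT 1 or WT 3, and tRF5-20-TyrGTA-5 was so on no WT array. All 4 passed the filter through the 3 PS19 arrays, which favours a higher level in PS19, so this count is a description only. The median of the 36 was 0.10 above the median RNA, with 19 above and 17 below it. That median was -0.12 with the scan as a fixed or random block (35 fragments) and -0.05 without WT 1 or PS19 3.

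In the supernatant 0 of the 36 and 0 of 3727 RNAs (0%) were called, with a lowest adjusted p of 0.928 (limma). No member was below an unadjusted p of 0.05 in either direction, where 1.74% of RNAs were higher and 1.05% lower. Without WT 2, 6 members were higher and 2 lower at that level, as were 88 and 126 RNAs. PS19 lay above WT without overlap for 4 of the 36, namely tRF3-17-TyrGTA-2, tRF5-18-TrpCCA-3, tRF5-20-PheGAA-2 and tRF5-22-TyrGTA-5, where 7.42% of 3668 RNAs did. It lay below for 0, where 2.43% did. Of the members above, tRF5-18-TrpCCA-3 was not well above background in the supernatant on WT 3 and PS19 2. The median of the 36 was 0.04 above the median RNA, with 20 above and 16 below it, and it was -0.06 without WT 1, -0.03 without PS19 3 and 0.16 without WT 3.

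For the ratio of CLIP over supernatant, 0 of the 36 and 0 of 3971 RNAs (0%) differed between genotypes at an adjusted p under 0.05, with a lowest of 0.774 (limma). At an unadjusted p under 0.05, 1 member was higher, where 5.16% of RNAs were, and 0 lower, where 0.68% were; the median RNA was itself 0.26 higher in PS19. The members higher at that level numbered 4 without PS19 1, where 254 RNAs were, and 0 without WT 3 or PS19 3. Centring on the RNAs tested changed the split of all RNAs from 205 higher and 27 lower to 83 and 81. Without overlap, 3 of 35 members were higher, where 11.2% of 3842 RNAs were, and 0 lower, where 1.43% were. These were 5'tiRNA-36-TyrGTA-2, tRF5-20-PheGAA-1 and tRF5-20-TyrGTA-5. Members stood evenly about the median RNA, 18 above and 18 below.

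**Figure D4:**
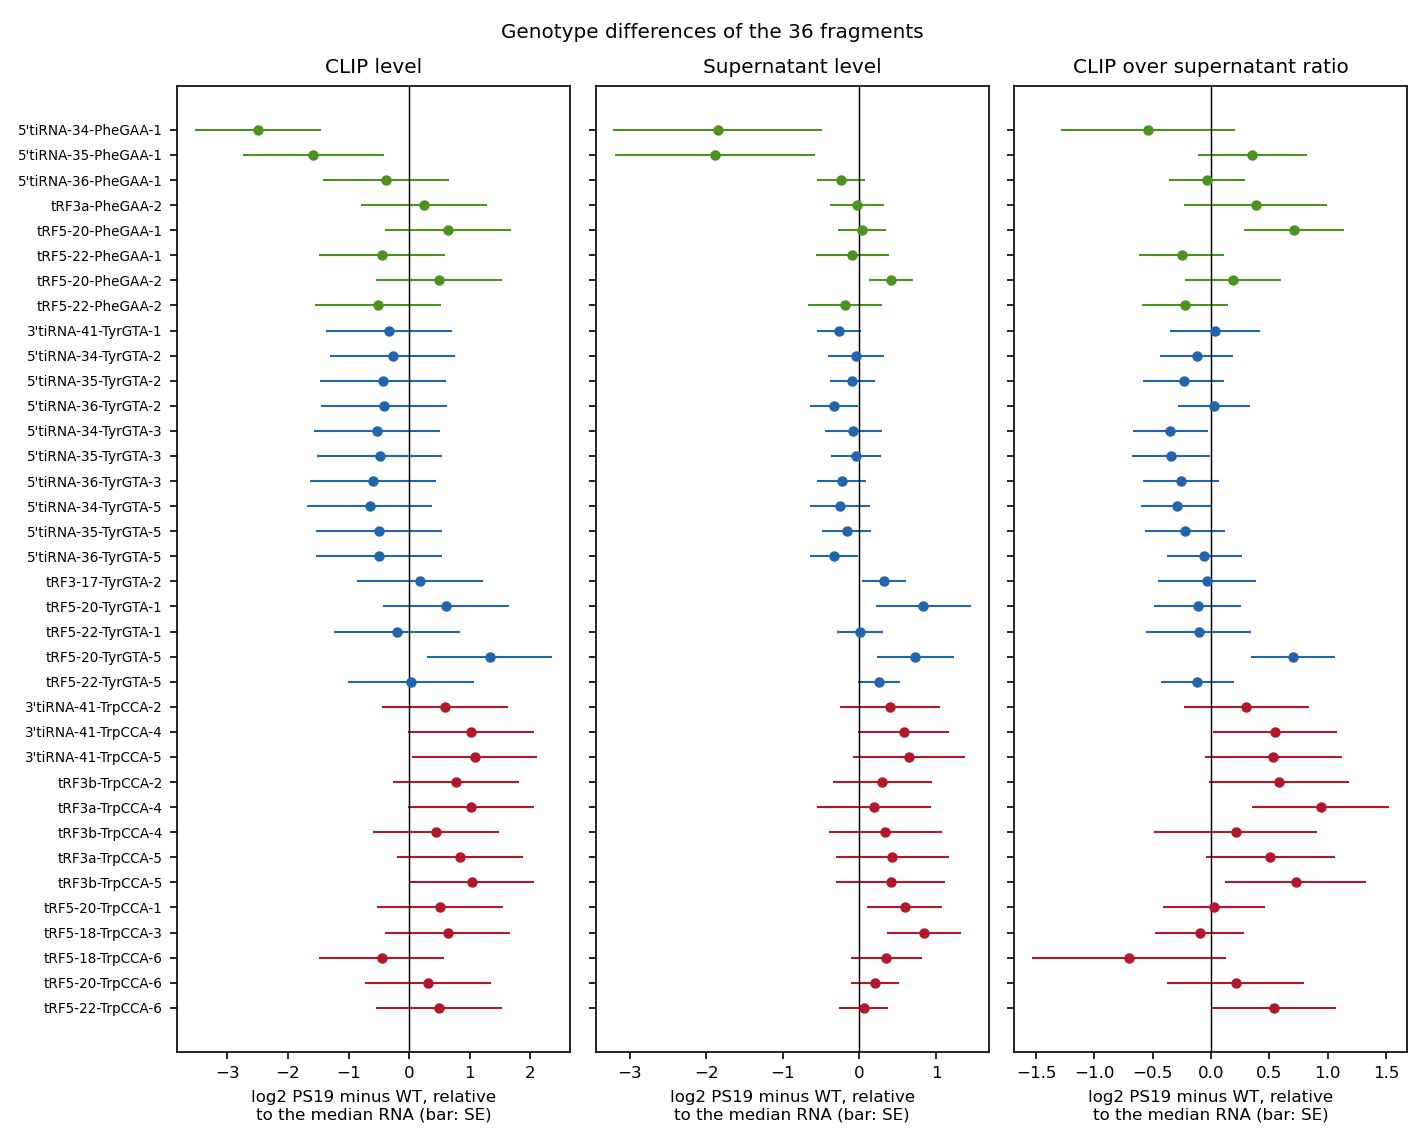
Points give the PS19 minus WT difference of each fragment relative to the median RNA, on the log2 scale, in CLIP, in the supernatant and in their ratio; bars are the standard errors of the fit, and Phe, Tyr and Trp are green, blue and red. In CLIP the fitted difference is below the median RNA for all 12 5'tiRNAs and above it for 12 of 13 Trp fragments, whose WT levels were mostly not above background, and most bars cross 0.

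Within each genotype the ratio was also set against 0, the centre of the array. In WT 0 of the 36 were called, where 3 of 3971 RNAs (0.0755%) were. At an unadjusted p under 0.05, 10 of 36 were lower in CLIP than in the supernatant, where 13.9% of RNAs were, and 0 higher, where 1.31% were. Those 10 were 7 of the 8 Trp 3' fragments together with tRF5-20-TrpCCA-1, tRF5-20-PheGAA-1 and tRF5-20-TyrGTA-5. None of the 10 was well above background in CLIP on WT 1 or WT 3, and tRF5-20-TyrGTA-5 on no WT array, so these WT means and p-values rest on such spots. The lowest was 3'tiRNA-41-TrpCCA-4, with ratios of -1.0, -1.90 and -1.88 on the WT arrays and a mean of -1.59 (SE 0.376, limma adjusted p = 0.239). With the ratio centred on the RNAs tested, 2 members were lower at that level in place of 10, and without WT 3 it was 5.

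In PS19 0 of the 36 were called, where 5 RNAs (0.126%) were, and no member had an unadjusted p under 0.05, where 2.47% of RNAs were higher and 4.08% lower. 3'tiRNA-41-TrpCCA-4 had ratios of -1.79, -0.62 and 0.06 there, so the fragment that was lowest in WT ran from far below the centre to just above it in PS19. Its difference between genotypes was 0.81 (SE 0.53, limma adjusted p = 0.79).

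The authors' deposited table gives CLIP differences on another scale, with the mean signal of spike-in probes taken off each array. In the authors' deposited table, of the 36 fragments 19 were higher in PS19 and 17 lower, with log2 fold changes from -2.44 for 5'tiRNA-34-PheGAA-1 to 1.38 for tRF5-20-TyrGTA-5 and a median of 0.15. The median of all 2380 RNAs in the authors' deposited table was 0.04. None of the 36 had a p-value under 0.05 there, where 57 RNAs did, and no RNA had an adjusted p under 0.05.

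Fragments of mitochondrial tRNAs for the same amino acids and the full-length tRNA gave other profiles. The 5 mitochondrial fragments had CLIP differences of 0.24 to 1.27, and 4 of them were below the median RNA. In CLIP mt-5'tiRNA-34-TrpTCA was well above background on 4 arrays and the others on 3, so some of their ratios rest on undetected signals. mt-5'tiRNA-31-TyrGTA had ratios of -0.42, -1.49 and -1.38 on the WT arrays and -0.71, -0.05 and 0.08 on the PS19 arrays. mt-5'tiRNA-34-TrpTCA had 0.97, -1.28 and -0.41, and -0.87, 0.46 and -0.40. Like the Trp 3' fragments, both were lower on WT 2 and PS19 1 than on PS19 2 and PS19 3. The other mitochondrial fragments did not have this order. On WT 2, PS19 1, PS19 2 and PS19 3 mt-tRF5-18-TyrGTA had ratios of 0.24, 0.24, -0.40 and -1.76. On the same arrays mt-tRF-1-20-PheGAA had 0.46, 0.14, 0.18 and -0.64, and mt-tRF5-20-TrpTCA had 0.52, 0.60, -0.58 and 0.92. Full-length Tyr-GTA-3 had ratios of 0.35, 0.58 and 0.30 on the WT arrays and 0.53, 0.23 and 0.58 on the PS19 arrays, above 0 on all 6. The 5'tiRNA with the same number, 5'tiRNA-34-TyrGTA-3, had ratios of 0.21, 0.01 and -0.22 on the WT arrays and -0.22, 0.04 and -0.08 on the PS19 arrays, lower than the full-length tRNA on every array.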

How the data were processed

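The submitters' processing notes and the file headers name Agilent Feature Extraction 11.0.1.1, which gave the deposited intensity values; the headers record that background was subtracted and that both dyes were normalised array by array. The authors' deposited value table holds log2 red processed signal minus 1 offset per array, as checked against those signals. The authors' deposited table of comparisons gives log2 fold changes with p-values, in the direction PS19 minus WT. Each name was given to the probe whose recomputed fold change and p-value matched (tolerances 1e-09 and 1e-07); all 817 tRNA fragments matched 1 probe each.

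Here, log2 processed signals were scaled, array by array, to the 75th percentile of RNAs detected well above background on every array (550 for CLIP, 1703 for supernatant). Ratios were centred on the array median over all 10935 RNAs, named or not, without loess. Dyes were not swapped, so dye bias is part of every ratio. RNAs well above background on at least 3 arrays (in either channel for the ratio), with at least 2 values per genotype, were fitted with limma 3.58.1 (R 4.3.3) with 1 mean per genotype and Benjamini-Hochberg adjustment over all RNAs. The fit was tested on simulated data with independent noise on each array and no missing values. These arrays correlate within scans, so that test does not speak to the p-values given here.

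The members and lists were chosen with earlier results of these data known. Members named with values were the 3 with the smallest p in each direction of each comparison and 1 per amino acid and fragment type. Length series, members whose groups did not overlap and those described beside them were added after their values were seen.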

Additional observations from a re-analysis of the deposited data

Results flagged for a closer look

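For 2 fragments every WT array had a ratio of CLIP over supernatant below 0 and every PS19 array one above 0. 5'tiRNA-36-TyrGTA-2 had ratios of -0.25, -0.03 and -0.18 on the WT arrays and 0.23, 0.02 and 0.16 on the PS19 arrays, a difference of 0.29 (SE 0.31, limma adjusted p = 0.84), which is 0.03 above the median RNA. tRF5-20-TyrGTA-5 differed by 0.96 (SE 0.36, limma adjusted p = 0.774), and its CLIP signal was well above background on no WT array, so its WT ratios rest on such spots. Neither difference passed the test. Ratios without overlap and higher in PS19 were common: 11.2% of 3842 RNAs had them, as did 3 of 35 members. The median RNA was itself 0.26 higher in PS19. How many of all RNAs lay on opposite sides of 0 was not counted.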

How the results depend on the processing

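Results were recomputed with other scalings, background correction, filters, variance models, blocks and each array left out. With the scan as a fixed block only PS19 1 and WT 2 compare the genotypes. Among the 36 fragments, the calls at an adjusted p under 0.05 stayed at 0 in each comparison and setting run, except for 1 in CLIP with the scan as a random block (tRF5-20-TyrGTA-5, 1.36 above the median RNA, limma adjusted p = 0.0185), a fragment detected in CLIP on no WT array, so that p is no test beyond its bound. Over all RNAs the CLIP calls rose from 0 to 20 with that block, 36 with array weights, 5 with normexp and 2 without WT 3. The median of the 36 in CLIP, relative to the median RNA, was 0.487 with no filter and 0.0025 with RNAs detected on all 6 arrays against 0.103; it turned to -0.117 and -0.121 with the scan as a fixed and a random block and ran from -0.0493 to 0.101 with 1 array left out. In the supernatant it ran from -0.0562 to 0.162 with 1 array left out and was -0.0407 with normexp, -0.0243 with RNAs detected on all 6 arrays, -0.0136 with array weights, and -0.0991 and -0.0376 with the scan as a fixed and a random block, against 0.0415. For the ratio between genotypes that median was 0.141 with normexp, 0.187 with no filter and -0.063 with RNAs detected on all 6 arrays (13 fragments), against -0.00367, and -0.0667 to 0.0585 with 1 array left out. Within WT it was -0.251 with normexp and -0.178 with no filter against 0.0579, and -0.0312 to 0.0983 with 1 array left out. Within PS19 it was 0.0396 with RNAs detected on all 6 arrays against -0.016, and -0.0378 to 0.0505 with 1 array left out. The cause of these shifts was not tested.

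Single fragments that changed side of the median RNA were, with normexp, tRF5-20-TyrGTA-5 in CLIP (-0.024) and in the ratio (-0.0784), 5'tiRNA-34-PheGAA-1 (0.382) and 5'tiRNA-34-TyrGTA-3 (0.781) in the ratio, and 5'tiRNA-34-TyrGTA-5 (-0.626) and 5'tiRNA-35-TyrGTA-3 (-0.675) within WT. With the scan as a fixed block they were 3'tiRNA-41-TrpCCA-5 (-0.00172) and tRF3b-TrpCCA-5 (-0.333, and -0.265 as a random block) in CLIP, and 5'tiRNA-34-PheGAA-1 (0.246) and tRF5-18-TrpCCA-6 (0.0219) in the ratio. With 1 array left out, 5'tiRNA-35-PheGAA-1 ran from -4.42 to 0.984 (without WT 3) in CLIP and from -0.0218 (without PS19 2) to 0.527 within PS19. 5'tiRNA-34-PheGAA-1 ran from -1.14 to 0.383 in the ratio and from -0.0175 to 1.55 within WT, with the side changed without WT 1. tRF5-18-TrpCCA-6 ran from -1.35 to 0.21 (without PS19 2) in the ratio. The other 397 values of single fragments kept their side and call. At an unadjusted p under 0.05, all RNAs split into 45 higher and 6 lower in CLIP, but 12 and 42 with the percentile over all RNAs, 5 and 21 with the spike-in offset, 71 and 2 unscaled and 961 and 22 without WT 2. Supernatant levels split into 65 and 39, but 1798 and 38 with normexp, and ratios into 205 and 27, but 914 and 3 with normexp. Of the fragments, 14 were higher at that level in CLIP with array weights in place of 1, and with normexp 13 were higher in the supernatant in place of 0, 11 in the ratio in place of 1, and 18 lower within WT in place of 10.

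The design speaks of pairs, and the deviations of same-numbered arrays correlated at -0.0752, -0.515 and 0.315 in CLIP. In the supernatant these correlations were 0.141, -0.431 and 0.464. No same-numbered arrays shared a scan, and levels followed the scans, so the correlations cannot decide whether the numbers mark pairs. The numbers were not taken as pairs. With a replicate block 0 fragments were called in CLIP, supernatant or ratio, and their medians relative to the median RNA were 0.0973, 0.038 and -0.00346.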

Other observations

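The array pattern of the Trp 3' fragments was looked for in other RNAs after it had been seen. Of 1745 RNAs well above background in both channels on WT 2 and the 3 PS19 arrays, 562 were tRNA fragments other than the members. On WT 2 and PS19 1, 25 of the 562 had ratios as low as those of the 8 Trp 3' fragments. Of these 25, 4 also had ratios within or above the range of the 8 on PS19 2 and PS19 3. None of the 1154 other named RNAs in that set had so low a ratio on WT 2 and PS19 1. The 4 were mt-3'tiRNA-40-LysTTT, 5'tiRNA-36-LysCTT-8, 5'tiRNA-35-LysCTT-18 and tRF5-22-GluCTC-1, so the pattern was not confined to Trp or to 3' fragments. tRF5-22-GluCTC-1 had ratios of -1.96 on WT 2 and -1.47 on PS19 1, and of -0.14 and -0.33 on PS19 2 and PS19 3.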
